A study of Homo sapiens with 6 samples.

Results

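The nuclear pore complex genes are 33 genes chosen by name, from the subunits of the ring scaffold to the proteins of the nuclear basket and of the pore membrane. All 33 were found among the 62492 genes listed in each library, and all 33 were among the 17000 genes with enough counts to be tested. They were measured by RNA-seq of polyA RNA from HCT116 cells, a human colorectal carcinoma line. The line was transfected with siRNA at 20 nM, either siControl, a control duplex whose libraries carry the genotype label WT, or siNONO, a duplex against NONO whose libraries are labelled as a knockdown. NONO is a nuclear RNA-binding protein and a core component of paraspeckles. Each group held 3 libraries, labelled Set 1, Set 2 and Set 3, with 1 library of each group in each Set, and the submitters call them biological replicates. A single duplex was used against NONO, so loss of NONO and any other effect of that duplex cannot be told apart.

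The nuclear pore complex is the channel through which proteins and RNA pass between nucleus and cytoplasm. Stacked rings of scaffold proteins hold a central channel lined with flexible chains rich in phenylalanine and glycine, which let transport receptors through and hold back most other large molecules. Filaments reach into the cytoplasm on one face, a basket hangs into the nucleus on the other, and proteins that span the membrane anchor the whole. Dividing cells take the pore apart in mitosis and build it again, and they add new pores in interphase, so growing cells keep making its subunits.

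The estimated counts of the 6 libraries summed to between 21765393 and 32659002 per library. Counts were scaled to library size with edgeR's TMM factors and are given as CPM. NONO was at 496, 495 and 516 CPM in siControl and at 89.5, 95.5 and 100.4 CPM in siNONO, in Sets 1, 2 and 3, a log2 fold change of -2.40 (standard error 0.0337, adjusted p = 2.47e-13). This adjusted p, and each one given for a count below, came from edgeR's quasi-likelihood test, blocked by Set, after Benjamini-Hochberg adjustment for the 17000 genes, and a gene was called at 0.05 or below. The cells carried epithelial transcripts: the summed TPM, the authors' level per length, of 7 epithelial markers was 2998 to 3150 in siControl and 2829 to 3143 in siNONO, although VIL1 did not pass 0.17 in any library. Markers of fibroblasts summed to at most 19.3 TPM, nearly all of it COL1A1, with COL1A2 at 0 in every library. Those of leukocytes and endothelium stayed at or below 1.52 and 0.63 TPM.

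Of the 33 nuclear pore genes, 17 were lower in siNONO, 5 were higher and 11 were not called. For comparison, 23.4% of all genes tested were called lower and 23.2% were called higher. The share of pore genes called lower was therefore 51.5%, and the share called higher 15.2%. Without the Set as a block, edgeR called 14 of them lower and 3 higher. On the authors' TPM scale, with limma on log2(TPM + 1), 18 were called lower and none higher, where 21.3% of all genes were lower and 9.7% higher and the median of all genes lay at -0.07. In these bulk libraries, fewer cells of one kind and less RNA per cell cannot be told apart.

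The differences were small. NUP62 alone moved by at least 0.5 on the log2 scale, a size that 2898 of the genes tested reached. The median log2 fold change of the 33 genes was -0.13, against -0.0048 for all genes tested, and it was -0.10, -0.10 and -0.13 in Sets 1, 2 and 3. Summed over the 33 genes, the level was 3929, 4096 and 4014 CPM in siControl and 3579, 3656 and 3599 CPM in siNONO. The 3 sums of siNONO lay below the 3 of siControl, and their mean was 90.0% of the siControl mean. By CPM, 16 members had all 3 siNONO libraries below all 3 siControl libraries, against 24% of all genes, and 4 had them above, against 23.9%.

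**Figure D1:**
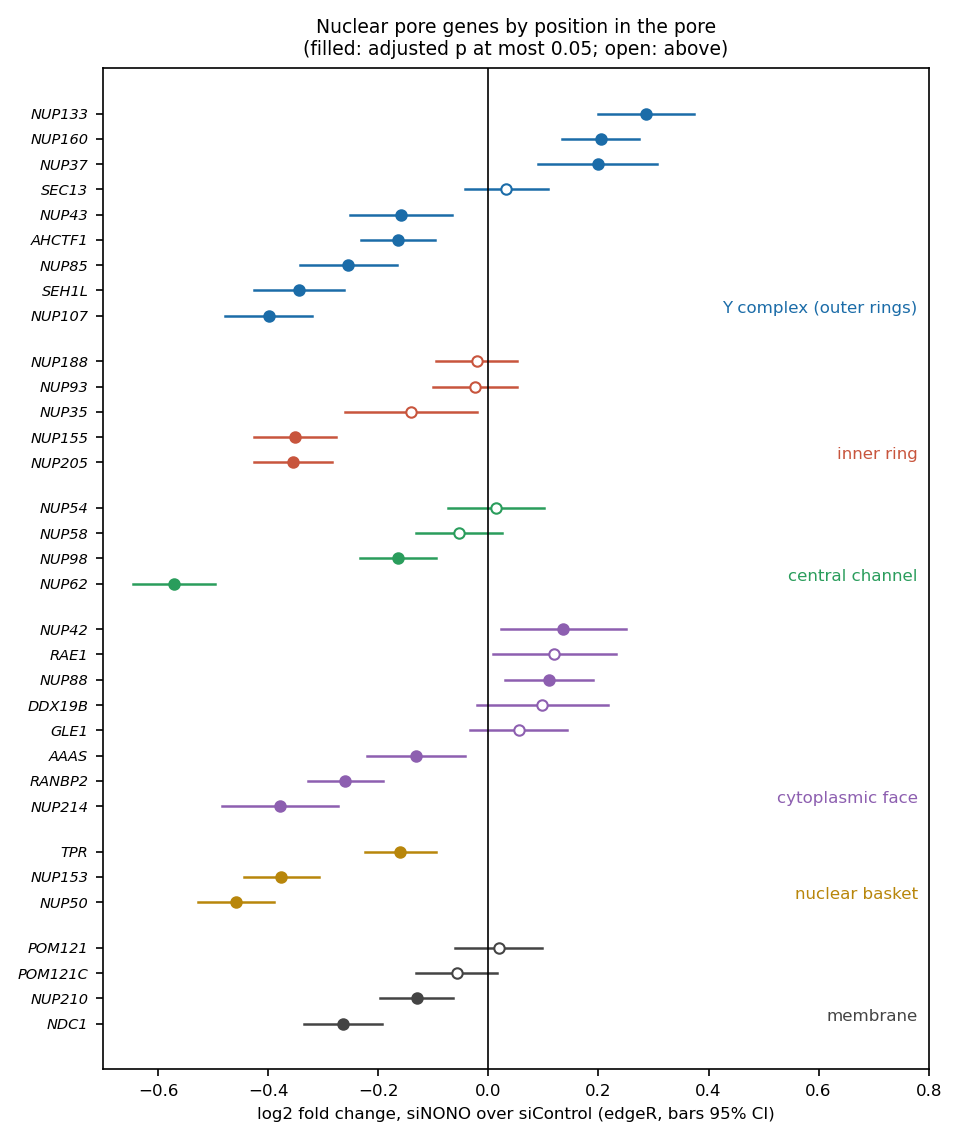
Log2 fold change of each of the 33 nuclear pore genes, siNONO over siControl (x axis; edgeR, 3 libraries a group), by position in the pore. Points are estimates, bars 95% confidence intervals, and filled points were called at an adjusted p of 0.05 or below: 17 filled points lie left of 0 and 5 right of it, and on log2(TPM + 1) none of those 5 was called and NUP88 turned negative.

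The promoters of the genes at both ends of the range are printed because these genes moved in opposite directions in the same libraries. They come from RefSeq on GRCh38.p14, run from 250 bases before to 50 bases after the gene start, and are given 5′ to 3′ on the gene's strand. NUP62 (chr19:49929455-49929754, minus strand) and NUP50 (chr22:45163675-45163974, plus strand) had the lowest log2 fold changes. NUP133 (chr1:229508292-229508591, minus strand) and NUP160 (chr11:47848301-47848600, minus strand) had the highest. Capitals mark matches, on either strand, to CCAAT, to the ETS core CCGGAAG, to the NRF1 form TGCGCATG or to the YY1 form AAGATGGCG. They also mark matches, on either strand, to the E2F forms TTGGCGC and TTCGCGC, to the CHR element TTTGAA or to the CRE TGACGTCA.
NUP62: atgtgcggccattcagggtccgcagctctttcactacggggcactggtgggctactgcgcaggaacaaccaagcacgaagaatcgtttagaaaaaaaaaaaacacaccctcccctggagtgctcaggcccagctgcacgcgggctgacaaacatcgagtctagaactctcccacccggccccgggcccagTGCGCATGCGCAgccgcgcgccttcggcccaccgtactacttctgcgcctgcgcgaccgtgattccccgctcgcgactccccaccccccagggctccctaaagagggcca
NUP50: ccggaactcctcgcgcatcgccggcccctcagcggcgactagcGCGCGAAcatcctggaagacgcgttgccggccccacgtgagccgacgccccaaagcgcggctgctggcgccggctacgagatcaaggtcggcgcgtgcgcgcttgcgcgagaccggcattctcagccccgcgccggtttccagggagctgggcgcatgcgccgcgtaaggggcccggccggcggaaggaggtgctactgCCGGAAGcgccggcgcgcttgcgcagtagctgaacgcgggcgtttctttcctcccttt
NUP133: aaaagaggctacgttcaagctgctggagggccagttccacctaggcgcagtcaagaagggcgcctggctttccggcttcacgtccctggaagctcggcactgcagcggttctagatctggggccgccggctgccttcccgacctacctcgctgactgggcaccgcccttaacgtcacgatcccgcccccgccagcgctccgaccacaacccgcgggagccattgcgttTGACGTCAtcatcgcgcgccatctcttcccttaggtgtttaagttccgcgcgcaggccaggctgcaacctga
NUP160: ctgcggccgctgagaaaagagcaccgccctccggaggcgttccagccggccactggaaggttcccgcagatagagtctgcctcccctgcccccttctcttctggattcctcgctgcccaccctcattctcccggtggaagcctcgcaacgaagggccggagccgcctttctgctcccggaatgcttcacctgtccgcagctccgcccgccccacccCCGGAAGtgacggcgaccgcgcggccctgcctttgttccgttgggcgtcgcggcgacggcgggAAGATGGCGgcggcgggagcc
The NUP62 window holds an NRF1 match that reads on both strands, and the NUP50 window an E2F and an ETS match. The NUP133 window holds a CRE, and the NUP160 window an ETS and a YY1 match. The NUP50 window also holds gcgcatgcgc, left in lower case because it lacks the leading T of the NRF1 form.

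A promoter was listed for 30 of the 33 genes, all but NUP43, AHCTF1 and GLE1. The ETS core was in 13 of the 30, or 43.3%, and in 10.7% of the 27305 promoters listed. Those 27305 were not limited to genes tested here, while all members were tested. It was in 4 of the 15 promoters of genes called lower and in 9 of the 15 others. The YY1 form was in 4 of the 30 (13.3%, against 1.8% of all), the E2F form TTCGCGC in 4 (13.3%, against 2.3%), the E2F form TTGGCGC in 2 (6.7%, against 3.1%) and the CRE in 3 (10.0%, against 2.0%). CCAAT was in 40.0% of the 30 and 35.7% of all, and the CHR element in 20.0% and 15.4%. The NRF1 form was in 3.3% and 2.3%. The letters gcgcatgcgc in NUP50 and NUP107, which lack the leading T of that form, were not counted as NRF1 matches. The GC box core GGGCGG, left in lower case above, was in 40.0% and 44.6%. A match is a stretch of letters and not a measured binding site.

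The Y complex forms the outer rings of the scaffold on both faces of the pore. It held the widest split among the positions, with 5 of its 9 genes lower (55.6%), 3 higher (33.3%) and 1 not called. Of all genes tested, 23.4% were lower and 23.2% higher. NUP107, the subunit in its stem that binds NUP133, was at 85.5, 96.5 and 82.1 CPM in siControl and at 65.4, 72.0 and 62.8 CPM in siNONO. All 3 siNONO libraries of NUP107 (chr12:69080731-69139589, plus strand, GRCh37) were below the lowest siControl library, and it fell by 0.40 (standard error 0.0360, adjusted p = 1.78e-06). NUP133, which joins the stem to the next Y complex, went the other way. It was at 65.5, 64.8 and 61.5 CPM in siControl and at 80.7, 75.0 and 78.4 CPM in siNONO. Every siNONO library of NUP133 (chr1:229576006-229644088, minus strand) was above every siControl library, with a log2 fold change of 0.29 (standard error 0.0401, adjusted p = 7.79e-05). On log2(TPM + 1) its difference stayed above 0, at 0.16, and was not called (adjusted p = 0.163, limma).

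Among the other subunits of the Y complex, SEH1L, a small beta-propeller protein shared with the amino acid sensing GATOR2 complex, fell by 0.34 on the log2 scale, from 73.4 to 57.8 CPM. NUP85, its partner in the short arm, fell by 0.25. AHCTF1, also called ELYS, which brings the first pore proteins to chromatin after mitosis, fell by 0.16. Of the stretches of 100 bases in its canonical transcript, 31.5% also occur in AHCTF1P1. AHCTF1P1 was at 1.43 CPM in siControl and was not called. NUP43 fell by 0.16. The call for NUP43 was lost without the block (adjusted p = 0.0549) and with DESeq2 (adjusted p = 0.0773). NUP160 rose by 0.20 and NUP37, which binds it, by 0.20, and neither of those was called on log2(TPM + 1), where they stood at 0.09 and 0.06. DESeq2 did not call NUP37 (adjusted p = 0.0629). SEC13, shared with the COPII coat of secretory vesicles, had a log2 fold change of 0.03 with a 95% confidence interval of -0.04 to 0.11.

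Because NUP107 and NUP133 bind each other, their levels per length were also set against each other. The log2 ratio of NUP107 to NUP133 in TPM was 1.59, 1.87 and 1.65 in siControl and 1.18, 1.26 and 0.90 in siNONO. That of NUP107 to NUP160, the scaffold protein at the other end of the Y, was 0.93, 0.96 and 0.82 in siControl and 0.39, 0.47 and 0.31 in siNONO. In both ratios every siNONO library was below every siControl library, with NUP107 still above NUP160 in all 6 and above NUP133 in all 6. NUP107 had the lowest log2 fold change of the Y complex, and NUP133 and NUP160 the highest. These ratios therefore restate the differences given above and are no separate support for them.

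The inner ring lies between the outer rings, in the plane of the membrane, and holds the channel proteins in place. Of its 5 genes, 2 (40%) were lower, where 23.4% of all genes tested were, and 3 were not called. NUP205, a large solenoid scaffold protein, was at 143, 149.6 and 153 CPM in siControl and at 115, 114 and 119.7 CPM in siNONO. No siNONO library of NUP205 (chr7:135242665-135333505, plus strand) reached a siControl level, and it fell by 0.35 (standard error 0.0327, adjusted p = 2.16e-06). NUP155, which links the ring to the membrane, was at 132, 136 and 135 CPM in siControl and at 99.9, 111 and 106 CPM in siNONO. Here too the groups were apart (chr5:37288239-37371208, minus strand), with a fall of 0.35 (standard error 0.0343, adjusted p = 3.43e-06).

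NUP188, the paralog of NUP205 in the same ring, had a log2 fold change of -0.02 with an interval of -0.09 to 0.05. In TPM the log2 ratio of NUP205 to NUP188 was -0.59, -0.67 and -0.82 in siControl and -1.06, -1.10 and -1.14 in siNONO, so that each siNONO library was below each siControl library. NUP93, the hub that carries both and the channel proteins, stood at -0.02, with an interval of -0.10 to 0.05. NUP35, which bends membrane and binds NUP155, missed the threshold at -0.14 (adjusted p = 0.0532), and it was called lower on log2(TPM + 1), where it stood at -0.20 (adjusted p = 0.0310, limma), and also with library size alone and with a gene length offset.

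The central channel is filled by NUP62, NUP54 and NUP58, which form a trimer, and by NUP98. Here 2 of 4 genes (50%) were lower, where 23.4% of all genes tested were, and 2 were not called. NUP62 had the lowest log2 fold change of the 33 genes. It was at 121, 133 and 141 CPM in siControl and at 83.8, 86.9 and 95.9 CPM in siNONO. Every siNONO library of NUP62 (chr19:50410082-50433021, minus strand) was below every siControl library, with a fall of 0.57 (standard error 0.0343, adjusted p = 5.19e-08). The fall was 0.54, 0.62 and 0.56 in Sets 1, 2 and 3. On the opposite strand, exons of ATF5 cover 9.38% of the exonic bases of NUP62, and ATF5 rose from 9.99 to 18.9 CPM, with a log2 fold change of 0.91. Of all stretches of 100 bases in its canonical transcript, 15.0% are also found in transcripts of 2 other genes, so some of its count could be split. The kit keeps the strand, but whether the counting used it is not given in the sources used here.

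Neither partner of NUP62 in the trimer was called. NUP54 had a log2 fold change of 0.01 (95% confidence interval -0.07 to 0.10), and NUP58 of -0.05 (interval -0.13 to 0.02). Per length, the log2 ratio of NUP62 to NUP54 was 0.40, 0.63 and 0.73 in siControl and -0.08, -0.08 and 0.10 in siNONO. The ratio of NUP62 to NUP58 was 0.02, 0.23 and 0.32 in siControl and -0.37, -0.49 and -0.23 in siNONO. Both ratios were lower in each siNONO library than in each siControl library, while that of NUP54 to NUP58 overlapped between the groups, from -0.41 to -0.38 in siControl and from -0.41 to -0.29 in siNONO.

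NUP98, whose gene also encodes the Y complex subunit NUP96 in one precursor, was at 195, 209 and 204 CPM in siControl and at 180.4, 186 and 176 CPM in siNONO. The groups did not overlap, but the highest siNONO library, in Set 2, was near the lowest siControl library, in Set 1. NUP98 (chr11:3692313-3819022, minus strand) fell by 0.16 (standard error 0.0318, adjusted p = 9.90e-04). On log2(TPM + 1) it stood at -0.26 and was not called (adjusted p = 0.0610, limma).

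**Figure D2:**
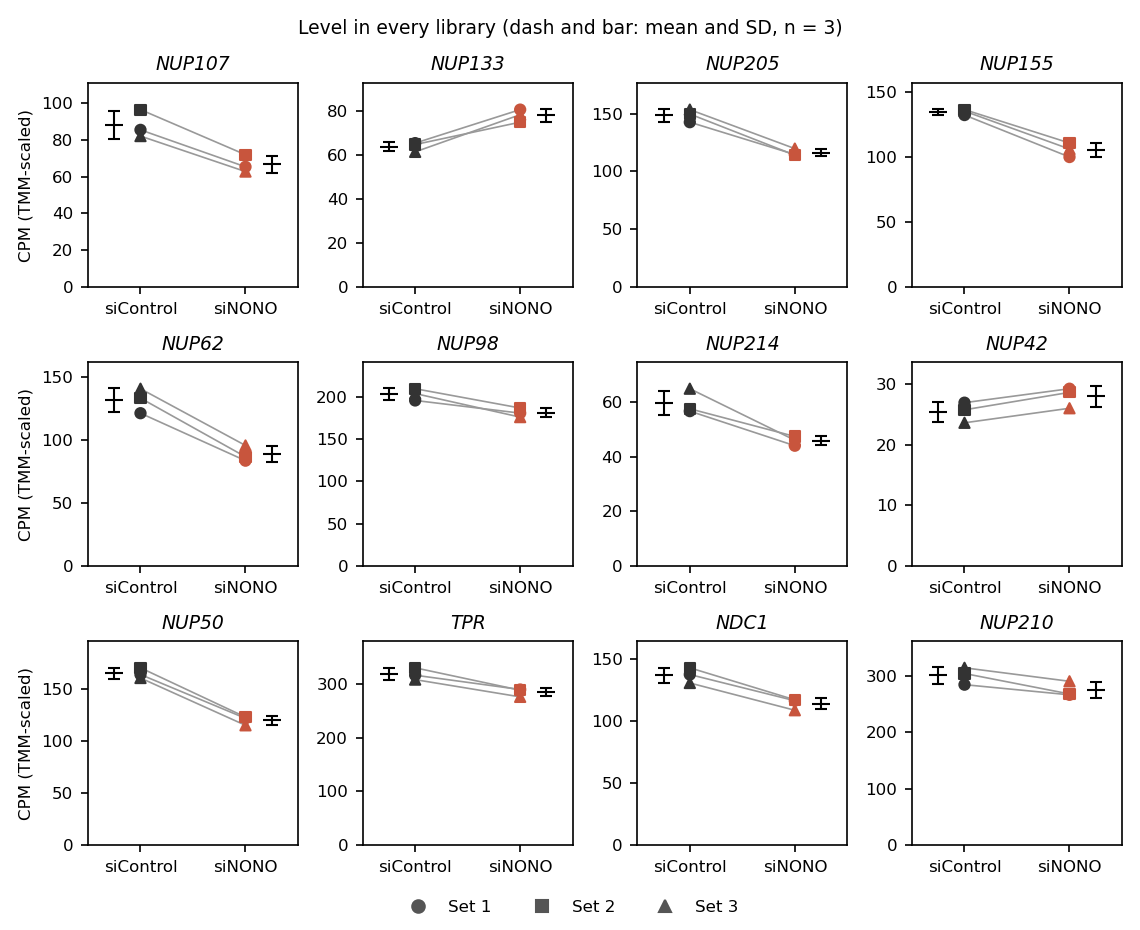
CPM (y axis, from 0) in every library for the called genes with the lowest and the highest log2 fold change at each position of the pore, with lines joining the siControl and siNONO library of a Set and dashes with bars giving mean and SD (n = 3). NUP62 and NUP50 were lower in each siNONO library and NUP133 was higher in each, while the groups of NUP42 and NUP210 overlap; NUP133 and NUP42 were not called on log2(TPM + 1).

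The cytoplasmic face carries the filaments and the machinery that strips export factors from messenger RNA. Of its 8 genes, 3 were lower (37.5%), 2 higher (25%) and 3 not called, where 23.4% and 23.2% of all genes tested were lower and higher. No gene here was called higher with library size alone, with a gene length offset, with DESeq2, without the block or on log2(TPM + 1). NUP88 and NUP42, the genes called higher, thus lost their calls there. NUP214, the platform for the helicase DDX19B and for the export receptor XPO1, was at 56.7, 57.6 and 64.9 CPM in siControl and at 44.04, 47.4 and 46.1 CPM in siNONO. All siNONO libraries of NUP214 (chr9:134000960-134110050, plus strand) were below the siControl ones, with a fall of 0.38 (standard error 0.0481, adjusted p = 3.49e-05). NUP88 forms a subcomplex with NUP214, and its log2 fold change was 0.11 (adjusted p = 0.0263). That rise was not called when either library of Set 1 or of Set 2 was left out (adjusted p from 0.105 to 0.141), nor without the block, nor with DESeq2, and on log2(TPM + 1) it turned to -0.12. Exons on the opposite strand cover 35.5% of the exonic bases of NUP88, first among them those of RABEP1, which had a log2 fold change of -0.03 and was not called.

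RANBP2, also called NUP358, the main protein of the cytoplasmic filaments and a SUMO ligase, fell by 0.26, from 339 ± 17.4 to 283 ± 13.0 CPM (SD, n = 3). It shares 14.6% of its stretches of 100 bases with 7 other genes, most often with RGPD3, one of its partial copies in the RGPD family. Of this family, RGPD8 fell by 0.26, from 35.7 to 29.6 CPM, and RGPD3 was at 1.00 CPM in siControl and not called. RGPD5 was at 46.5 ± 9.92 CPM in siControl and 38.5 ± 13.1 CPM in siNONO (SD, n = 3) and was not called. RGPD6 was at 57.5 ± 15.2 and 43.9 ± 13.6 CPM and was called lower (adjusted p = 0.0487). The groups of RGPD5 and of RGPD6 overlapped. AAAS, the product of the gene mutated in triple A syndrome, fell by 0.13 (adjusted p = 0.0184). That call was lost when any 1 of the 6 libraries was left out (adjusted p from 0.0516 to 0.0814). It was also lost without the block, with DESeq2 and without a filter on low counts. Leaving out 1 library takes its partner in the Set out of the blocked comparison as well, so the 6 fits are not separate tests.

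NUP42, a cofactor of GLE1 in messenger RNA export, was at 26.9, 25.7 and 23.6 CPM in siControl and at 29.2, 28.6 and 26.0 CPM in siNONO. It was higher in siNONO within each Set, but siNONO of Set 3 was below siControl of Set 1, so the groups overlapped. NUP42 (chr7:23221460-23240630, plus strand) had a log2 fold change of 0.14 (standard error 0.0519, adjusted p = 0.0475), and leaving out any 1 library took it over the threshold (adjusted p from 0.0648 to 0.182). GLE1, which activates the helicase, stood at 0.06 (interval -0.03 to 0.14), DDX19B at 0.10 (interval -0.02 to 0.22) and RAE1, the partner of NUP98 in export, at 0.12 (interval 0.01 to 0.23, adjusted p = 0.0739). RAE1 was called higher when either library of Set 2 was left out (log2 fold change 0.19 and 0.18) and without a filter on low counts. The value of DDX19B is uncertain, since 36.4% of its stretches of 100 bases also occur in other genes, chiefly one annotated across the same locus.

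The nuclear basket is the mesh on the nuclear face of the pore. All 3 of its genes were lower, where 23.4% of all genes tested were, with a median log2 fold change of -0.38. NUP50, a cofactor that helps release cargo from importin alpha, was at 164, 171 and 161 CPM in siControl and at 122, 123 and 115 CPM in siNONO. All 3 siNONO libraries of NUP50 (chr22:45559806-45583898, plus strand) lay below siControl, with a fall of 0.46 (standard error 0.0317, adjusted p = 1.61e-07), second only to NUP62 among the members. NUP153, which ties the basket to the nuclear ring and the lamina, fell by 0.38, from 159 ± 2.52 to 123 ± 1.93 CPM (SD, n = 3). In Sets 1, 2 and 3 its fall was 0.38, 0.38 and 0.37.

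TPR, the long coiled coil of the basket, was at 316, 330.1 and 308 CPM in siControl and at 289.7, 288 and 276 CPM in siNONO. The groups did not overlap, and the fall of TPR (chr1:186280784-186344825, minus strand) was 0.16 (standard error 0.0295, adjusted p = 6.64e-04). The 95% confidence intervals of NUP153 (-0.44 to -0.31) and TPR (-0.22 to -0.10) did not meet. The log2 ratio of NUP153 to TPR per length was -0.77, -0.83 and -0.65 in siControl and -1.16, -0.89 and -0.87 in siNONO, all 3 siNONO values being below the siControl ones. Summed over the basket, the level was 168, 176 and 169.9 TPM in siControl and 134, 122 and 129 TPM in siNONO, or 75.0% of the siControl mean. On log2(TPM + 1) the median of all genes also lay below 0, at -0.07.

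Proteins that span the pore membrane anchor the scaffold. Of these 4 genes, 2 (50%) were lower, where 23.4% of all genes tested were, and 2 were not called. NDC1 was at 137, 143 and 130.5 CPM in siControl and at 116, 117 and 109 CPM in siNONO. Every siNONO library of NDC1 (chr1:54231151-54304136, minus strand) was below every siControl library, with a fall of 0.26 (standard error 0.0322, adjusted p = 2.44e-05). NUP210, a glycoprotein that rings the pore in the lumen of the nuclear envelope, was at 284, 304 and 314 CPM in siControl and at 266, 268 and 289.9 CPM in siNONO. It was lower in siNONO within each Set, but siNONO of Set 3 was above siControl of Set 1. The fall of NUP210 (chr3:13357735-13461822, minus strand) was 0.13 (standard error 0.0305, adjusted p = 0.00359). It was not called without the block (adjusted p = 0.0805) or when either library of Set 2 was left out (log2 fold change -0.09 without siControl, adjusted p = 0.121, and -0.10 without siNONO, adjusted p = 0.0835).

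POM121 and POM121C, genes on chromosome 7 with near-identical aligned coding bases, were not called. They stood at 0.02 (95% confidence interval -0.06 to 0.10) and -0.06 (interval -0.13 to 0.02). POM121C was, however, called lower on log2(TPM + 1), where it stood at -0.22 (adjusted p = 0.0437, limma). Of 3747 coding bases in POM121 and 2960 in POM121C, 2951 could be aligned. Over those, 37 differ, an identity of 98.7%. The stretch of 60 aligned coding bases with the most differences is printed to show how little separates reads from the aligned part. The 6 differing bases are in capitals. It runs from coding base 3027 to 3086 of POM121 and from 2237 to 2296 of POM121C. The annotated coding length of POM121C is not a whole number of codons, so its coding positions hold for the annotation used here only.
POM121: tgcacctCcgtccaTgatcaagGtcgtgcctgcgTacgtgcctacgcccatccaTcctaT
POM121C: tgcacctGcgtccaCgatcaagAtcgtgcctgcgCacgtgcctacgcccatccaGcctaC
Of their stretches of 100 bases, 41.3% of POM121 and 49.3% of POM121C occur in other genes as well, so RSEM had to share out many of their reads. Shared within the pair were 32.7% of those of POM121 and 33.4% of those of POM121C. Their sum does not depend on how reads were split between the pair: it was 239, 241 and 261 CPM in siControl and 234, 247 and 250.5 CPM in siNONO, and the groups overlapped.

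Levels between genes can be compared per length, and in TPM the members of siControl ran from 16.9 to 135. SEC13 was highest at 135 ± 5.81 TPM (SD, n = 3), ahead of NUP93 at 97.8 ± 0.36, and the gap between these neighbours exceeded their spread. NUP88 at 79.1 ± 11.5 and NUP85 at 76.3 ± 6.60 followed and did not differ beyond theirs. NUP214 was lowest at 16.9 ± 1.75 TPM, below NUP133 at 21.1 ± 1.58 and GLE1 at 26.6 ± 0.32. NUP107, NUP98, NUP50 and NUP62 lay between 66.9 and 68.7 TPM in siControl, closer together than the SD of NUP62, 6.62. In siNONO the same 4 genes were at 51.2 ± 2.29, 56.6 ± 1.87, 45.7 ± 2.51 and 41.5 ± 2.29 TPM.

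**Figure D3:**
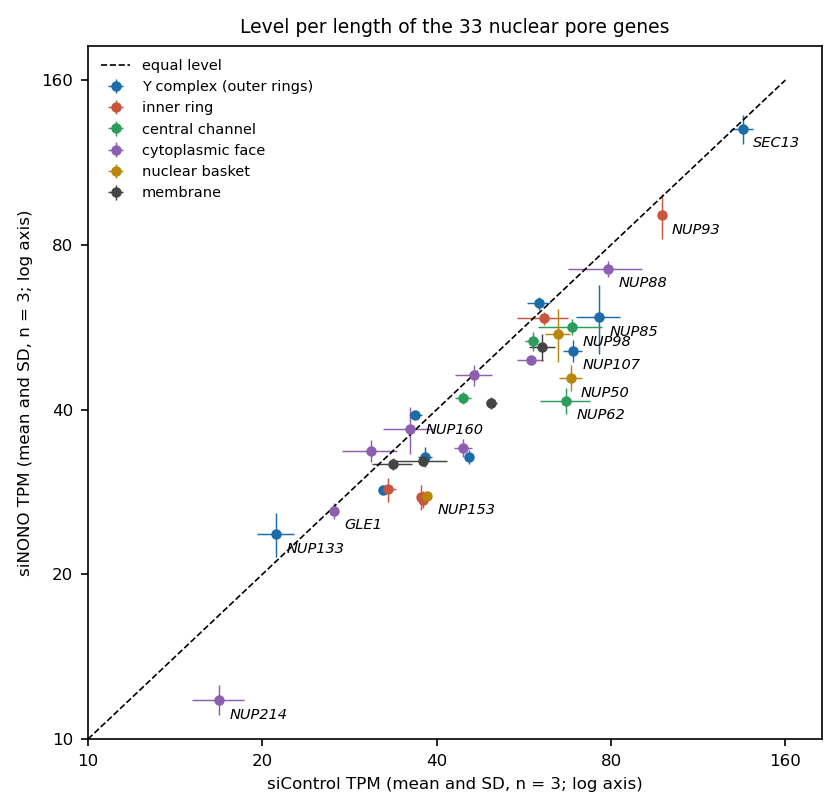
Mean TPM of the 33 nuclear pore genes in siControl (x axis) and siNONO (y axis), both log axes, with bars giving the SD (n = 3), coloured by position in the pore. Points below the dashed line were lower in siNONO per length: NUP62, NUP50 and NUP214 lie farthest below it, and SEC13 and NUP214 mark the ends of the range.

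Summed by position, the TPM of siNONO was 89.6% of siControl for the Y complex, 87.1% for the inner ring, 81.1% for the central channel, 91.8% for the cytoplasmic face, 75.0% for the basket and 86.4% for the membrane proteins. Over all 33 genes the sum went from 1711 ± 29.9 to 1482 ± 24.7 TPM (SD, n = 3), or 86.6%, on a scale where the median gene also stood lower in siNONO, as given above. Across the 33 genes, the log2 fold change had a Pearson r of -0.34 and a Spearman rho of -0.37 with the log10 mean transcript length, and r = -0.10 and rho = -0.17 with the log2 TPM of siControl. Over all 17000 genes the values with length were -0.06 and -0.08. These are across genes of the same 6 libraries, not across replicates.

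RSEM also gives each gene a mean transcript length, weighted by the estimated share of each transcript, which moves when the mix of transcripts moves. With limma on its log2, no member was called at an adjusted p of 0.05, nor was any of the 14129 genes tested (0%). At an unadjusted p of 0.05 or below, 1321 genes and 2 members passed, and no other tool was run on this measure, so a missed threshold here does not show that the lengths were the same. Those 2, named after their values were seen, were NDC1, from 4080 ± 81.2 to 3862 ± 67.1 bases (SD, n = 3; adjusted p = 0.428, limma), and NUP107, from 2006 ± 60.3 to 1926 ± 20.7 bases (adjusted p = 0.492, limma). NUP153 stayed between 6023 and 6026 bases in its 6 libraries, while NUP214 ran from 4594 to 6369 bases within siControl alone.

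Of the genes that work with the pore, 18 of 50 transport genes tested were lower and 8 higher, or 36% and 16%, where 23.4% and 23.2% of all genes tested were. The count of higher genes ran from 1 on log2(TPM + 1), where 22 were lower, through 4 without the block, to 11 with a gene length offset. The Ran cycle, which gives transport its direction, had 4 of 6 genes lower and none higher, from RANBP3, a cofactor of XPO1, at -0.21 to RANBP1 at -0.11. Without the block 2 of these were called lower, and RANBP1 lost its call there (adjusted p = 0.0973), with DESeq2 (adjusted p = 0.104) and when either library of Set 1 or of Set 2 was left out (adjusted p from 0.05003 to 0.157). Among importins, which carry proteins inward, 5 of 17 were lower and 4 higher, or 29.4% and 23.5%, close to the shares of all genes, from IPO9, an importer of histones, at -0.52 to KPNA6 at 0.24. On log2(TPM + 1) 5 importins were lower and none higher, without the block 3 were lower and 2 higher, with the gene length offset 4 were lower and 7 higher, and without either library of Set 3 4 were lower and 6 higher. Leaving out either library of Set 2 left 3 lower and 3 higher. All 7 exportins were called, 6 lower and 1 higher, or 85.7% and 14.3%. With DESeq2, without the block, without a filter on low counts, with the gene length offset and on log2(TPM + 1), 5 were lower. It was also 5 when any library other than the siNONO library of Set 3 was left out. CSE1L, which returns importin alpha to the cytoplasm, fell by 0.69, from 312 ± 9.37 to 194 ± 9.31 CPM (SD, n = 3), and XPO5, the exporter of microRNA precursors, rose by 0.23, which on log2(TPM + 1) was 0.08 and not called. Of 20 mRNA export factors, 3 were lower, down to THOC3 at -0.27, and 3 higher, up to SARNP at 0.34, or 15% each way, and 14 were not called. On log2(TPM + 1), 8 of those 20 were lower and 1 was higher, with the gene length offset 8 were lower and 3 higher, without the block 3 were lower and 1 higher, and without the siNONO library of Set 3 5 were lower. Leaving out either library of Set 1 or of Set 2 left 2 higher.

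CSE1L recycles importin alpha, from which NUP50 helps to release cargo. Both CSE1L and NUP50 lay below all their siControl libraries in every siNONO library, as did 24% of all genes tested. Each had been named as the lowest called gene of its list. Of the importin alpha genes tested, KPNA2 (-0.22) and KPNA5 (-0.19) were lower and KPNA6 (0.24) was higher. KPNA1, KPNA3 and KPNA4 were not called. A link between CSE1L and NUP50 was not tested. IPO9 was at 202, 206 and 218 CPM in siControl and at 143, 146 and 148 CPM in siNONO, which do not overlap. Of 10 genes that assemble or survey the pore, 2 were lower, with LEMD2, which recruits the membrane-sealing ESCRT machinery to the nuclear envelope, at -0.54, and 3 were higher (20% and 30%), up to VPS4B at 0.18. None of those was called higher without the block or on log2(TPM + 1), where VPS4B had adjusted p = 0.104 (edgeR) and 0.148 (limma). With DESeq2, with the gene length offset and without either library of Set 1 or of Set 3, 2 were higher. Of 10 genes of the lamina and inner nuclear membrane, 6 were lower, with LMNB1, a lamin that NUP153 binds, at -0.69, and 2 higher, up to EMD at 0.28 (60% and 20%), with 1 higher on log2(TPM + 1). Of the paralogs of pore genes, 10 were tested, with 2 lower, 1 higher (20% and 10%) and 7 not called. RGPD8 was one of those lower. The other, RGPD6 (adjusted p = 0.0487), had log2 fold changes of 0.0045, -1.10 and -0.10 in Sets 1, 2 and 3, so it moved mainly in Set 2. RGPD5, which was not called, stood at -0.92, 0.55 and -0.55 in the same Sets, opposite in direction to RGPD6 in Set 2. How reads were shared out between these copies was not tested. Only 1 paralog was lower with robust dispersions, with DESeq2, without the block, with the gene length offset and on log2(TPM + 1), while 3 were lower without a filter on low counts. DDX19A was higher at 0.13, a call lost with DESeq2 (adjusted p = 0.120), without the block (adjusted p = 0.120), on log2(TPM + 1) (adjusted p = 0.360, limma) and without the siNONO library of Set 2 (adjusted p = 0.0515).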

How the data were processed

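RNA-seq was available for 3 siControl and 3 siNONO libraries of HCT116 cells. Per the labels and the paper's methods, the authors trimmed the reads, aligned them with STAR to GENCODE transcripts on GRCh37 and ran RSEM (version 1.3.1). The estimated count per gene that they deposited is not normalized. The deposited TPM was scaled for length and library size by RSEM, and the deposited length and effective length are in bases (other units).

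Here the estimated counts were rounded, filtered with filterByExpr, scaled with TMM and tested with edgeR (version 4.0.16, legacy quasi-likelihood form, R 4.3.3), with the Set as a block, since the methods name a batch as a covariate without saying what it was. Log2 TPM and log2 length were tested with limma (version 3.58.1). Symbols were matched for 62162 of 62492 gene IDs. The members and gene lists were chosen with earlier results of these data known. The genes given in every library were, at each position in the pore, the called genes with the lowest and the highest log2 fold change, and any called gene whose log2 fold change reached 0.5 in size. Of each related list, the lowest and highest called gene was named. Ratios between members came from the same libraries as the calls and restate differences between members. CSE1L, IPO9, RGPD3, RGPD5, RGPD6, AHCTF1P1, ATF5 and RABEP1 have further values where a member's result touches them. Loci and shared stretches of 100 bases were taken from GENCODE version 44 on GRCh37, the authors' build with a newer annotation.

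The biological coefficient of variation was 3.51%. No pair of replicates was a repeat of another, since every pair differed by more than sampling noise. Both tests across genes were first tested on simulated data. Set numbers are those of the titles, and they pair the libraries. Deviations from the group means correlated at 0.227, 0.181 and 0.380 within Sets 1, 2 and 3 over 12114 genes. Pairings across Sets 1 and 2 gave 0.108 and 0.129, and those of Set 3 with Sets 1 and 2 gave -0.27 to -0.21. Set 3 thus stood apart, while Sets 1 and 2 were less distinct from each other. Alternatives were DESeq2 (version 1.42.0), other scalings, filters and forms of the test, a gene length offset, limma on TPM, no block and each library left out.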

Additional observations from a re-analysis of the deposited data

How the results depend on the processing

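Of the 17 members called lower, 13 kept direction and call under all 17 alternatives, the exceptions being NUP43, NUP98, AAAS and NUP210. None of the 5 higher did, and 3 of the 11 not called did. The count of higher members went from 5 to 3 with library size alone, with a gene length offset and with no replicate block, to 2 with DESeq2 and to 0 with limma on log2(TPM + 1) or log2(TPM + 0.1). With one library left out it was 3 to 4, and the lower count 15 to 16. The median log2 fold change was -0.15 with library size alone, -0.11 without a filter, -0.12 with the length offset, -0.21 and -0.22 on log2(TPM + 1) and log2(TPM + 0.1), and -0.15 to -0.0999 with one library left out. Transport genes called higher went from 8 to 4 with no replicate block and to 1 on either TPM scale, rose to 11 with the length offset, and was 6 to 10 with one library left out. Without the pairing by Set, NUP43, NUP88, NUP42, AAAS and NUP210 lost their calls and no other member changed its call. Direction turned for members near 0: NUP54 to -0.0021 with library size alone, NUP188 to 0.0206 with the length offset, and, with one library left out, NUP188, which ran from -0.0533 to 0.016, and POM121, which ran from -0.0122 to 0.0632. On log2(TPM + 1), SEC13 turned to -0.0499, NUP54 to -0.0803, NUP88 to -0.1168, RAE1 to -0.0018, GLE1 to -0.0242 and POM121 to -0.0707. On log2(TPM + 0.1), SEC13 stood at -0.0503, NUP54 at -0.0819, NUP88 at -0.1181, RAE1 at -0.0018, GLE1 at -0.025 and POM121 at -0.0726. The cause was not tested. No alternative called a changed transcript length in a member. With a lone library in a Set, that library adds nothing to the comparison in the fit with the block. Leaving out either library of a Set is therefore nearly the same test, and it rests on fewer pairs.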
